A study of Homo sapiens with 8 samples.

Results

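The genes described here are a block of protein-coding zinc finger genes on the short arm of human chromosome 19, labelled 19p12, read in HCT116 cells, an established human colon cancer line. The members were taken by annotation: every protein-coding gene whose symbol begins with ZNF and whose start lies in 1 fixed interval of chromosome 19 (GRCh38). This gave 37 of the 60609 genes in the count table, from ZNF101, which starts at 19668796, to ZNF254, which ends at 24129961. The rule itself reads names and positions, but the block was chosen by way of ZNF91 and ZNF675, after results on the counts of these libraries, including the comparison of the groups, were known. The fold changes and calls of its members are therefore descriptions, and nothing is supported with them. No file used here gives chromosome bands, so the band name was not checked.

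RNA was sequenced in 8 libraries. There were 4 of parental HCT116 with wild-type GNAS, listed as Ctrl, and 4 of a derivative line with the genotype GNAS R201C/+, listed as treated with CRISPR-Cas9. Both groups were kept in DMEM/F12 medium with 10% serum. The product of GNAS is the alpha subunit of the stimulatory G protein, which raises cyclic AMP, and R201C is a known activating change. Nothing in the labels says if the replicates come from different cultures, or if the edited cells descend from 1 clone. Clone and genotype therefore cannot be told apart, and each p-value reflects spread among these libraries alone, which may be technical. Libraries held 42584988 to 50986733 counts. GNAS itself was at 677 ± 16.8 CPM (SD, n = 4; CPM is the count scaled to the library total times its TMM factor) in the parental group and at 711 ± 13.2 CPM in the edited one. Total GNAS reads do not show the mutant allele. The epithelial markers EPCAM, CDH1, KRT8, KRT18 and KRT19 and the intestinal factor CDX2 were all tested, while VIL1, another intestinal marker, had 3 to 10 reads per library. The leukocyte markers PTPRC and CD3E and the fibroblast markers PDGFRA and DCN were at 0 in all 8 libraries. CD14, another leukocyte marker, had 4 to 7 reads per library, and THY1, another fibroblast marker, at most 1. Of the endothelial markers, VWF was tested, at 13 to 35 reads per library. PECAM1 had 1 to 6 reads per library and CDH5 at most 2.

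Most zinc finger proteins of this block belong to the KRAB family. The fingers, short loops that each hold a zinc ion between a pair of cysteines and a pair of histidines, read DNA, and the KRAB box at the start of the protein binds the corepressor TRIM28. TRIM28 in turn brings the histone methyltransferase SETDB1, which marks chromatin for silencing with methylation of lysine 9 of histone H3. Many of these proteins bind retrotransposons, and in human cells ZNF91 represses SVA elements and ZNF93 represses LINE-1 elements. The genes arose by repeated tandem duplication, so neighbours resemble each other in coding sequence and in promoter.

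The annotated coding sequences were translated and searched. At least 1 finger of the cysteine and histidine spacing pattern was found in 36 of the 37 members, with a median of 13 fingers among those 36. ZNF208 had the most, 36 fingers, followed by ZNF729 with 34 and ZNF91 with 31. ZNF738 had none in its longest annotated protein of 137 residues. A KRAB box pattern was found in 34 members, or 91.9%, and not in ZNF257, ZNF492 and ZNF714. The same search found it in 66.0% of 212 ZNF genes elsewhere on chromosome 19 and in 31.2% of 266 ZNF genes on other chromosomes. These are pattern matches to translated transcripts, given as a description. A fixed pattern can miss a KRAB box, and whether it misses an equal share in each set was not tested. The shares are therefore those of the pattern and may understate the KRAB genes of a set.

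RefSeq promoters (GRCh38.p14, 250 bases before to 50 bases after the annotated start) were found for 29 of the 37 members. They are shown for 5 of them because promoters close in sequence belonged to genes with very different read counts. ZNF91 had reads in every library, while ZNF208, whose promoter is the nearest to that of ZNF91, had none. ZNF675 is the next tested gene beyond ZNF91. ZNF714 and ZNF431 had the most alike promoters of the block. Each runs 5′ to 3′ along its gene. Capitals mark the ETS factor core (CCGGAA, or TTCCGG when read on the other strand) and the pair of 12-base words that the most members share, CTGTCACTCAGG and GTCCAATCAGGC, the second of which holds a CCAAT box.
ZNF91 (chr19:23395422-23395721, minus strand): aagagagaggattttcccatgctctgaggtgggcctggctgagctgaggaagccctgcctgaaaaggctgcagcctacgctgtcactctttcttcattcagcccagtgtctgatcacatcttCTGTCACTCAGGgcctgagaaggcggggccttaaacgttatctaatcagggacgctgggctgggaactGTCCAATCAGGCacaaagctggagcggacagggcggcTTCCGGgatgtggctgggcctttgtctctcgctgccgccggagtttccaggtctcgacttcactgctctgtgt
ZNF208 (chr19:22010894-22011193, minus strand): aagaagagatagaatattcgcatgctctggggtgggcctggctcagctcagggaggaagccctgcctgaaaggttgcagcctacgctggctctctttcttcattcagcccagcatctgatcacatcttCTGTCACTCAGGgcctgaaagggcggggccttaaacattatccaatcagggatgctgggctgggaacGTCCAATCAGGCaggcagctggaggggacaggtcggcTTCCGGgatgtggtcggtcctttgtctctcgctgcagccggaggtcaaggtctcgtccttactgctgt
ZNF675 (chr19:23687163-23687462, minus strand): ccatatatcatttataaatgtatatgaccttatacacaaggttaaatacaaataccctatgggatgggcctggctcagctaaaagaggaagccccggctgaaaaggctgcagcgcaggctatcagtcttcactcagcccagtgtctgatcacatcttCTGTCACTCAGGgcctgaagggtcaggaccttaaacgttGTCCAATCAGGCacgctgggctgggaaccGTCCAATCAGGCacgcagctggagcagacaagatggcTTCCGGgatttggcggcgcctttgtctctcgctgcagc
ZNF714 (chr19:21081953-21082252, plus strand): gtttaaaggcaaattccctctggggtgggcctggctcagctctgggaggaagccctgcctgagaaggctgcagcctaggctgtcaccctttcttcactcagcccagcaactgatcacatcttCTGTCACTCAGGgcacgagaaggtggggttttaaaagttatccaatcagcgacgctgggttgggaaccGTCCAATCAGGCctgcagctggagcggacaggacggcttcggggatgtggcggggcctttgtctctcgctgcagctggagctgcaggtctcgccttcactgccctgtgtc
ZNF431 (chr19:21141790-21142089, plus strand): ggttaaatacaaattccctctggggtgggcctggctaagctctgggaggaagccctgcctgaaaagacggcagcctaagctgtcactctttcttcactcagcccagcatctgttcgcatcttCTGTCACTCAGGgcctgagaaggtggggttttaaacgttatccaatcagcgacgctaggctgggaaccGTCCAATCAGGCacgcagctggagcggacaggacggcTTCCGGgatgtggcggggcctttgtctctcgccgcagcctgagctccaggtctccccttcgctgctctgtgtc

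The word CTGTCACTCAGG stood in promoters of 18 of the 29 genes, 5 tested and 13 untested, and in 0.11% of all 35116 promoters of the table. The word GTCCAATCAGGC stood in 18 genes too, 7 tested and 11 untested, and in 0.09% of all promoters. Both were chosen because members share them, so their counts describe the choice. The ETS core, searched on both strands as CCGGAA, was in 80.0% of the 30 member promoters (ZNF682 has a pair of them) against 17.2% of all promoters and 46.8% of those of ZNF genes elsewhere on chromosome 19. The SP1 box GGGCGG was in 73.3% of member promoters, in 64.7% of those of ZNF genes elsewhere on chromosome 19 and in 45.0% of all. Among the members it was in 6 of 11 promoters of tested genes (54.5%) and in 16 of 19 of untested genes (84.2%). For ZNF genes elsewhere on chromosome 19 the shares were 66.0% and 62.5%. The difference was not tested. The cyclic AMP response element TGACGTCA was in none of the 30 and in 1.8% of all, and its shorter form TGACG was in 2 of the 30, those of ZNF430 and ZNF682, and in 24.6% of all. CpG pairs numbered 9 to 18 (median 11) in promoters of tested members and 8 to 16 (median 10) in those of untested members. The duplicates share their ancestry, so these promoters are not independent of each other, and a word match is not a binding site.

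Aligned end to end, with gaps counted as differences, the 406 pairs of promoters had a median identity of 75.2%. A shift of the annotated start between genes therefore lowers the value. The closest pair was ZNF714 and ZNF431 at 91.0%. The promoter of ZNF91 matched that of ZNF208 at 85.7%, ZNF254 at 84.2% and ZNF726 at 84.0%. Of these, ZNF91 and ZNF254 had reads in every library, ZNF208 had none and ZNF726 had 2 reads in all. Among the promoters aligned, those of 3 genes stood below 55% with every other member. ZNF101 and ZNF14, the first 2 genes of the block, were at 44.0% to 54.4%, and ZNF682 was at 45.5% to 49.7%. For ZNF682 only the promoter at 20039206 to 20039505 was aligned. Its other promoter, at 20039456 to 20039755, holds the GENCODE start of the gene at 20039506 and was not aligned. The values of ZNF682 are therefore those of the aligned window alone. The windows of ZNF254, ZNF730, ZNF43 and ZNF429 lie inside their genes and do not hold the GENCODE start either. That of ZNF254 is at 24086937 to 24087236, and the gene starts at 24033405. Which start the reads of ZNF254 come from was not tested.

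**Figure D1:**
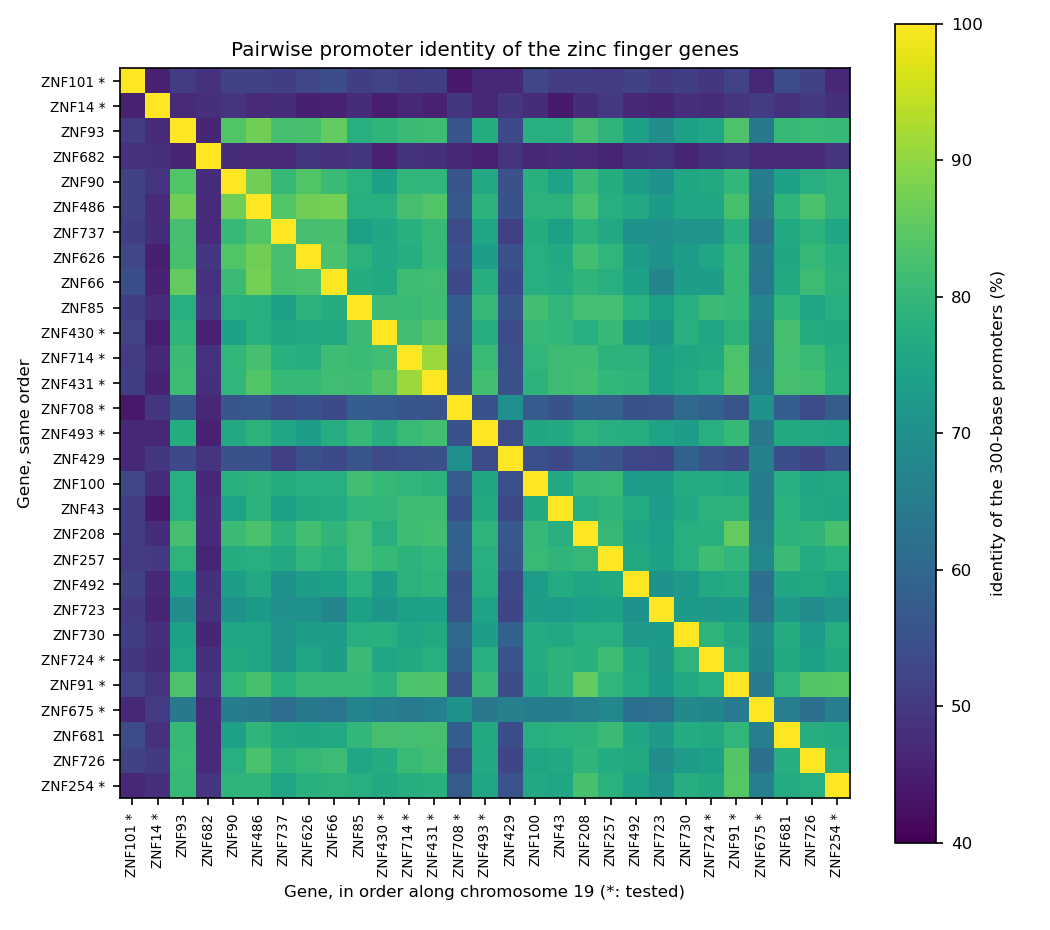
Pairwise identity, in percent of aligned positions with gaps counted, of the 300-base promoters of 29 zinc finger genes. Genes are in chromosome order on both axes, with an asterisk on those with enough reads to be tested. For ZNF682 only the promoter at 20039206 to 20039505 was used. ZNF714 and ZNF431 form the brightest pair at 91.0%, and the rows of ZNF101 and ZNF14 (44.0% to 54.4%) and of ZNF682 (45.5% to 49.7%) are dark throughout.

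Reads in the block came in stretches. Only 12 of the 37 members had enough reads to be tested, and the other 25 together held 29 reads in all 8 libraries. From the start of the block, ZNF101 and ZNF14 were tested, the next 10 genes from ZNF506 to ZNF85 were not, and the 6 genes from ZNF430 to ZNF493 were. A run of 13 genes from ZNF429 to ZNF730 followed with 13 reads in all. Then came ZNF724, ZNF91 and ZNF675, all tested, the nearly unread ZNF681 and ZNF726, and at the end ZNF254. The stretches were sharply bounded: the tested member with the fewest reads, ZNF493, had 525 over the 8 libraries, and the untested member with the most, ZNF253, had 6. These 2 genes are also the members just inside and just outside the count filter.

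**Figure D2:**
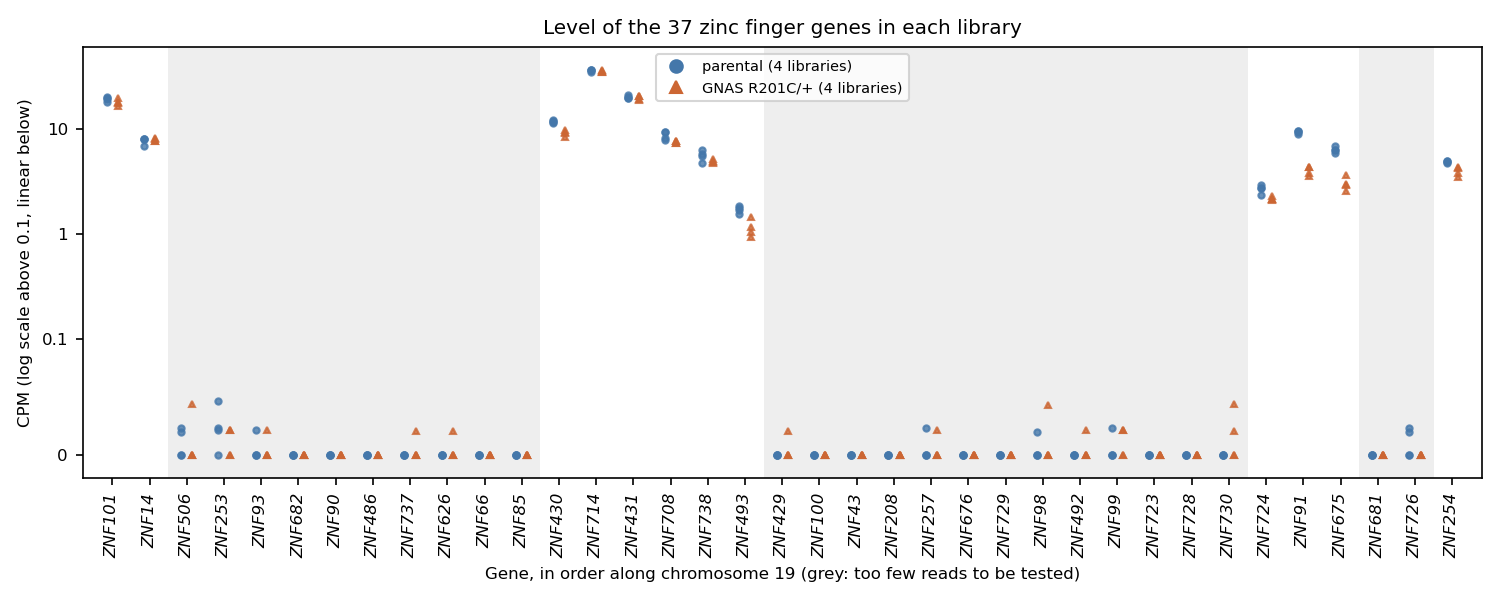
CPM of the 37 genes in each of the 8 libraries, in chromosome order, on an axis that is logarithmic above 0.1 and linear below it. Circles are parental and triangles GNAS R201C/+ libraries. Grey columns, the 25 untested genes, lie at or near 0 in every library, and the 12 tested genes stand in 4 stretches between them.

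Among the untested members, 13 were at 0 in all 8 libraries. They were ZNF682, ZNF90, ZNF486, ZNF66, ZNF85, ZNF100, ZNF43, ZNF208, ZNF676, ZNF729, ZNF723, ZNF728 and ZNF681. The remaining 12, ZNF506, ZNF253, ZNF93, ZNF737, ZNF626, ZNF429, ZNF257, ZNF98, ZNF492, ZNF99, ZNF730 and ZNF726, had at most 2 reads in any library. A count of 0 allows up to 3 reads, which is 0.0588 to 0.0704 CPM depending on the library, over the plain library total without the TMM factor and for counting error only. The LINE-1 repressor gene ZNF93 had 1 read in parental replicate 2, 1 in GNAS R201C/+ replicate 1 and 0 in the other 6 libraries. No difference between the groups was detectable in these 25 genes at this depth.

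A count of 0 in this table does not by itself show a silent gene. POLR2A, the largest subunit of RNA polymerase II, which every cell uses, was also at 0 in all 8 libraries, and so were TXNIP and SESN2. The share of genes at 0 in all libraries was 35.1% of the 37 members, 12.7% of ZNF genes elsewhere on chromosome 19, 11.3% of those on other chromosomes and 19.5% of all 19905 protein-coding genes. Sequence shared between genes was looked at directly. The share of 75-base words in a member's transcripts that no transcript of another gene holds had a median of 98.9% over the 37 members and was under 90% in ZNF724, ZNF98, ZNF492 and ZNF90 alone. The values there were 57.2%, 69.0%, 75.2% and 83.3%. The result depends on the word length. With 50-base words the median was 93.9%, and ZNF208 (86.2%) and ZNF726 (89.2%) were under 90% as well. ZNF85, ZNF682 and ZNF723, all at 0, shared no 75-base word with any other gene's transcripts. Of 50-base words they shared 98, 46 and 139. Copies outside annotated transcripts, such as on alternate or patch sequences of the assembly, were not searched. Whether reads were lost to such copies was not tested.

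Levels between genes are compared per length, as RPKM, the CPM divided by the kilobases of annotated exon. In parental cells ZNF714 was highest at 4.46 ± 0.129 RPKM (SD, n = 4). ZNF101 at 2.92 ± 0.130 RPKM and ZNF14 at 2.62 ± 0.188 RPKM followed, then ZNF708 at 2.0 ± 0.175, ZNF430 at 1.71 ± 0.0571, ZNF431 at 1.42 ± 0.0402 and ZNF738 at 1.42 ± 0.162 RPKM. The lower levels were those of ZNF675 at 0.931 ± 0.0617, ZNF91 at 0.897 ± 0.0276, ZNF724 at 0.805 ± 0.0700, ZNF254 at 0.638 ± 0.0148 and ZNF493 at 0.152 ± 0.0119 RPKM. Neighbours in this order whose 4 libraries overlapped were ZNF431 with ZNF738, ZNF675 with ZNF91, and ZNF91 with ZNF724. The order depends on which exons are counted as the gene. Over the length of the longest transcript, ZNF714 and ZNF101 stayed first and second, ZNF675 in place 8 and ZNF493 last, and the other 8 genes changed place. ZNF431 moved from place 6 to place 9 and ZNF430 from place 5 to place 3. Parental levels of 6 genes were then over 1.5 times higher: ZNF493 was at 0.340, ZNF91 at 1.70, ZNF254 at 1.14, ZNF430 at 2.99, ZNF738 at 2.27 and ZNF675 at 1.49 RPKM.

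The groups were then compared gene by gene. Calls were made with edgeR's quasi-likelihood test over 15751 tested genes, at a Benjamini-Hochberg adjusted p under 0.05. Of the 12 tested members 8 fell, 0 rose and 4 did not pass. Of all tested genes 48.1% were called, made up of 24.0% called lower and 24.1% called higher than parental. Because the block was chosen with this contrast known, the count is set beside that background and nothing is read from it. The median log2 fold change was -0.25 over the 12 members and 0.002 over all tested genes. Less RNA per cell and fewer cells with the RNA cannot be told apart in such bulk libraries.

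The largest difference was in ZNF91, the SVA repressor gene (ENSG00000167232.14, chromosome 19, 23304991 to 23395560, minus strand). Its level was 9.54, 9.50, 9.33 and 8.92 CPM in parental replicates 1 to 4 and 3.77, 4.34, 4.32 and 3.55 CPM in GNAS R201C/+ replicates 1 to 4. All parental libraries lay above all edited ones, with more than 4 CPM between the groups. The group means were 9.32 ± 0.287 and 3.99 ± 0.398 CPM (SD, n = 4), a log2 fold change of -1.23 with a standard error of 0.07, or 2.34-fold lower. The values rest on 380 to 485 reads per parental and 173 to 204 per edited library.

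ZNF675, which encodes a zinc finger protein reported to dampen TRAF6 signalling, lies 130.1 kb beyond ZNF91 on the same strand (ENSG00000197372.10, 23525631 to 23687220). Its level was 5.86, 6.31, 6.22 and 6.87 CPM in parental replicates 1 to 4 and 3.6, 2.89, 2.54 and 2.99 CPM in the edited ones. The groups again did not overlap. The means were 6.32 ± 0.418 and 3.01 ± 0.440 CPM, a log2 fold change of -1.07 with a standard error of 0.09, or 2.10-fold lower. No other member changed by as much, and 0.698% of all tested genes were called lower with a log2 fold change under -1. The promoters of these neighbours, printed above, were 64.9% identical with gaps counted as differences. The closest match of ZNF675 in the block was ZNF708, at 70.9%. Both windows hold the same marked words, but these lie nearer the end of the ZNF675 window. The annotated starts are thus offset relative to these words, and identity over the shared part alone was not measured.

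The remaining gene of that stretch, ZNF724, changed less. It was at 2.74, 2.89, 2.34 and 2.72 CPM in the parental and 2.14, 2.10, 2.14 and 2.30 CPM in edited libraries, without overlap but with little room between the groups. Its log2 fold change was -0.30 (standard error 0.10). ZNF724 shares 1487 exonic bases on the same strand with the annotated gene AC092329.3, which was at 0 in all libraries, and how the authors' counting treated reads there is not known, so its level is uncertain. ZNF254, at the end of the block, was at 4.92, 4.74, 4.97 and 4.76 CPM in the parental and 3.47, 3.79, 4.32 and 4.26 CPM in edited libraries. The groups did not overlap, at a log2 fold change of -0.29 (standard error 0.08).

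**Figure D3:**
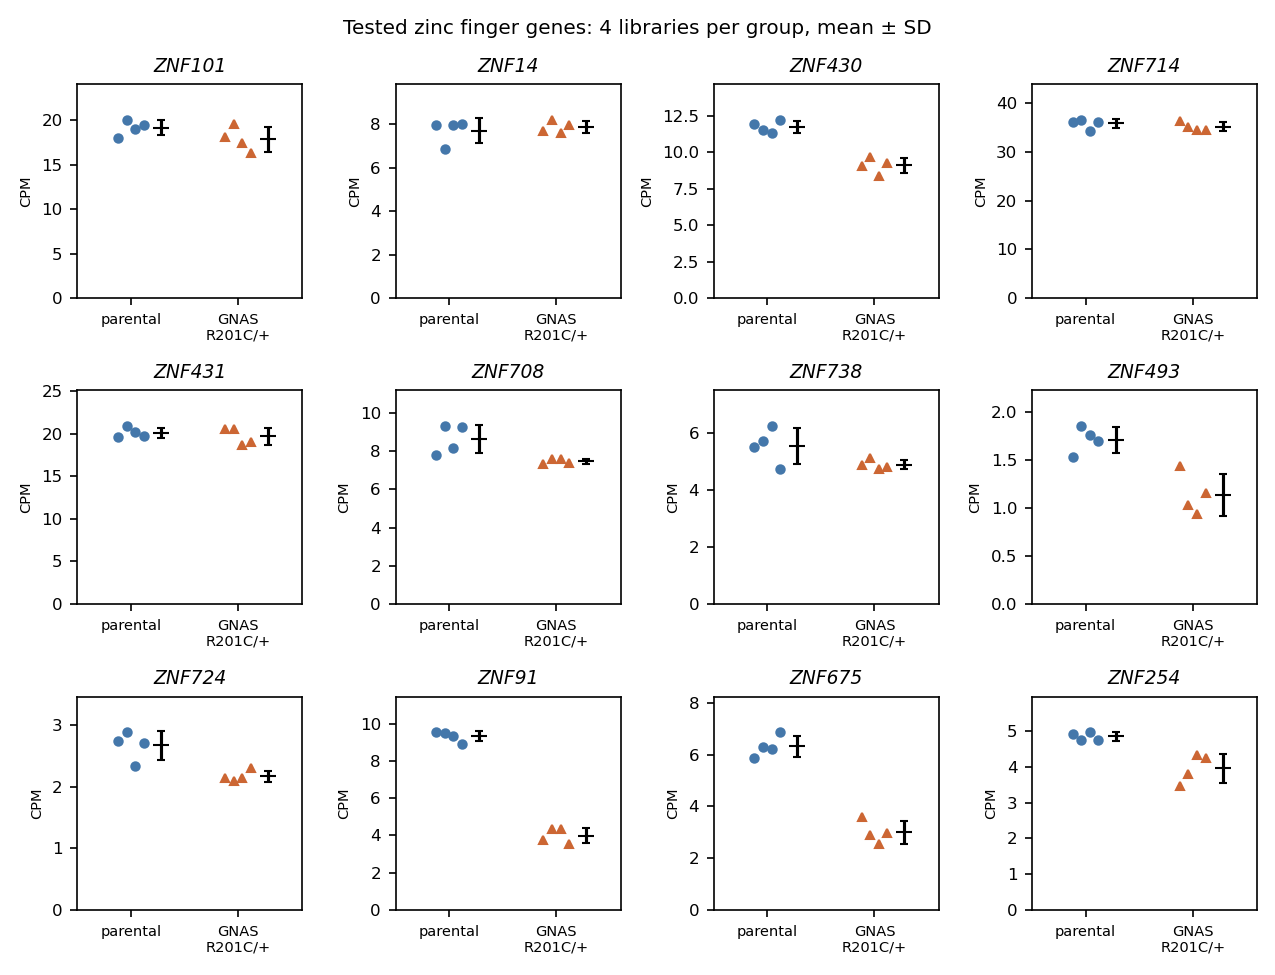
CPM of the 12 tested zinc finger genes in each library (vertical axes from 0), parental as circles and GNAS R201C/+ as triangles, with the mean and SD of 4 libraries beside each group. The groups are well apart in ZNF91 (9.32 against 3.99 CPM) and ZNF675 (6.32 against 3.01 CPM) and lie on top of each other in ZNF14, ZNF714 and ZNF431.

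In the middle stretch 4 of 6 genes fell, by smaller amounts. ZNF430 was at 11.9, 11.5, 11.3 and 12.2 CPM in the parental and 9.06, 9.67, 8.40 and 9.27 CPM in edited libraries. Its groups did not overlap, with a log2 fold change of -0.37 and a standard error of 0.05. ZNF493 was at 1.53, 1.85, 1.76 and 1.69 CPM in the parental and 1.43, 1.03, 0.931 and 1.15 CPM in edited libraries, again without overlap. It has the fewest reads of the tested members, 44 to 85 per library, and the widest error, with a log2 fold change of -0.59 (standard error 0.14).

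The members called nearest to no change were ZNF738 and ZNF708. ZNF708 was at 7.81, 9.31, 8.17 and 9.24 CPM in the parental and 7.34, 7.61, 7.57 and 7.36 CPM in edited libraries, a log2 fold change of -0.21 with a standard error of 0.06. The parental libraries were spread, and the lowest of them lay just above the highest edited one. ZNF738 was at 5.51, 5.72, 6.24 and 4.72 CPM in the parental and 4.88, 5.11, 4.74 and 4.82 CPM in edited libraries. Its groups overlapped, because parental replicate 4 lay below all edited libraries. Its log2 fold change was -0.18 (standard error 0.08), and the call ended under 10 of 16 alternatives.

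The 3 members with the highest level per length of annotated exon did not pass. Over the longest transcript ZNF430, which was called lower, takes place 3 ahead of ZNF14. ZNF714 was at 36.2, 36.5, 34.3 and 36.2 CPM in the parental and 36.4, 35.1, 34.5 and 34.4 CPM in edited libraries, a log2 fold change of -0.03 (standard error 0.03). ZNF101 was at 18, 20, 19 and 19.5 CPM in the parental and 18.1, 19.6, 17.4 and 16.3 CPM in edited libraries, with a log2 fold change of -0.10 and a standard error of 0.05. ZNF14 was at 7.99, 6.89, 7.98 and 8.02 CPM in the parental and 7.69, 8.20, 7.62 and 7.99 CPM in edited libraries, with a log2 fold change of 0.03 and a standard error of 0.06. In all 3 the groups overlapped. ZNF431, whose promoter is 91.0% identical to that of ZNF714, had group means of 20.1 ± 0.569 and 19.7 ± 0.990 CPM and a log2 fold change of -0.03. ZNF430, which ends 22.1 kb before ZNF714 begins, was called lower as given above.

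**Figure D4:**
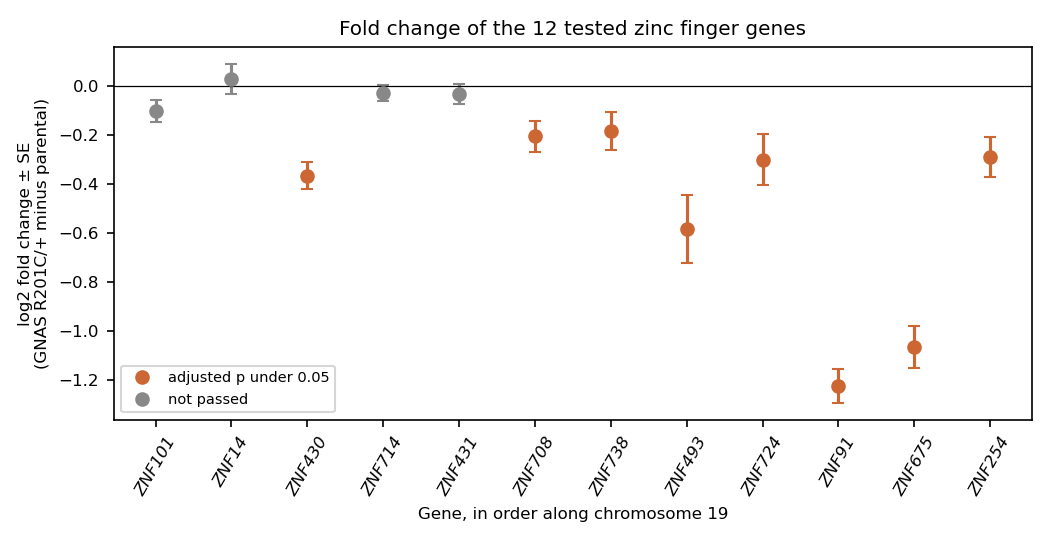
Log2 fold change of the 12 tested zinc finger genes in chromosome order, with bars for the standard error of the edgeR fit. The 8 called genes all lie below 0, from -0.18 in ZNF738 to -1.23 in ZNF91, and the 4 others, in grey, lie between -0.10 and 0.03.

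Groups of libraries did not overlap in 7 of the 12 tested members, every time with the edited libraries lower, against 20.8% of all tested genes. Summed over the 8 members that fell, the level was 50.7 ± 0.881 CPM in the parental and 35.7 ± 0.653 CPM in edited libraries. Summed over the 4 others it was 82.8 ± 1.35 and 80.5 ± 2.94 CPM. These sums follow from the calls and are given for their size. The transcripts of the block are low in GC, with a median of 37.3% over the 12 tested members against 48.6% over all tested genes with a value. Removing the trend of log2 fold change on GC over all genes, a step added after the data were seen, changed ZNF91 to -1.19 and ZNF675 to -1.03 and the median of the 12 members to -0.21. The trend itself was -0.03 at the GC content of these genes.

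ZNF genes in other places were read for context. Of 139 tested ZNF genes elsewhere on chromosome 19, 63 (45.3%) fell, 7 (5.04%) rose and 69 did not pass. Their median log2 fold change was -0.15. Of 211 on other chromosomes, 81 (38.4%) fell, 26 (12.3%) rose and 104 did not pass, with a median of -0.06. Over all tested genes 24.0% fell and 24.1% rose. The difference between the block and these sets was not tested. Ordered by log2 fold change among all 362 tested ZNF genes, ZNF91 was in place 6 and ZNF675 in place 7 from the lowest. The 5 below them were ZNF550, ZNF426 and ZNF850 on chromosome 19 and ZNF804A and ZNF516 on other chromosomes.

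**Figure D5:**
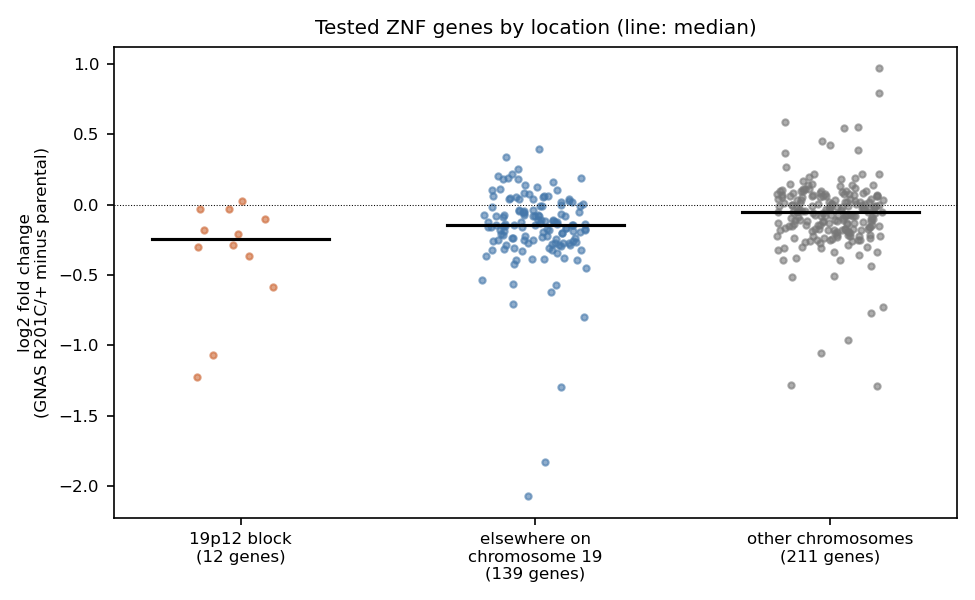
Log2 fold change (GNAS R201C/+ minus parental) of each tested ZNF gene, in the 19p12 block (12 genes), elsewhere on chromosome 19 (139 genes) and on other chromosomes (211 genes), with a line at each median. The medians are -0.25, -0.15 and -0.06, and the ranges of the sets overlap.

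Other genes that start in the interval were read as well. Of 9 tested protein-coding genes without a ZNF symbol, which lie before ZNF101 in the sequence, 1 rose, 1 fell and 7 did not pass. Over all tested genes 24.1% rose and 24.0% fell. The one that fell was ATP13A1, a transporter ATPase gene of the endoplasmic reticulum, by 0.10 on the log2 scale (102 ± 1.96 to 94.8 ± 1.28 CPM). CILP2, a cartilage matrix protein gene, rose from 31.7 ± 0.588 to 34.1 ± 1.28 CPM. PBX4, a homeobox cofactor gene, was at 7.94 ± 0.518 and 7.87 ± 0.588 CPM. Of 170 non-coding genes and pseudogenes in the interval, 8 were tested and 1 fell, a transcribed pseudogene of the importin gene IPO5 that lies between ZNF724 and ZNF91. This pseudogene, IPO5P1 (ENSG00000269837.1), had 44 to 69 reads per library and fell by 0.49 on the log2 scale, from 1.40 ± 0.115 to 0.998 ± 0.0640 CPM. A neighbouring processed transcript annotated with the same symbol did not pass, at 0.346 ± 0.105 and 0.392 ± 0.0302 CPM. The files give these as separate genes. The long non-coding gene AC092279.1, which shares 273 exonic bases with ZNF254 on the same strand, was at 1.17 ± 0.241 and 1.17 ± 0.132 CPM.

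The partners through which KRAB zinc finger proteins silence chromatin were read from a list of 35 corepressor and lysine 9 methylation genes, of which 34 were tested. In that list 14 (41.2%) fell, 7 (20.6%) rose and 13 did not pass, with a median log2 fold change of -0.045. The shares over all tested genes were 24.0% and 24.1%. The corepressor gene TRIM28 itself was at 1030 ± 15.9 CPM in the parental and 1010 ± 13.1 CPM in edited libraries and did not pass, nor did SETDB1 at 66.6 ± 1.55 and 64.0 ± 1.59 CPM. These were named for their role, outside the naming rule. ZNF274, a zinc finger protein that in human cells binds the ends of zinc finger genes and brings SETDB1 to them, fell from 12.1 ± 0.318 to 9.89 ± 0.265 CPM. Among others that fell, the nucleosome remodeller CHD3 went from 175 ± 2.15 to 148 ± 2.67 CPM and MORC2, an ATPase that compacts chromatin at silenced sites, from 66.5 ± 0.863 to 55.8 ± 0.688 CPM. CBX1, a reader of lysine 9 methylation, fell by 0.10 on the log2 scale. PPHLN1, a subunit of the HUSH silencing complex, fell by 0.10 as well. The largest log2 fold change of the list was in DAXX, a histone chaperone gene, which rose by 0.98 (standard error 0.26). It went from 0.279 ± 0.143 to 0.562 ± 0.0497 CPM on only 5 to 31 reads per library. As with the 0 of EHMT2 given below, so low a count may not be the level of the gene, which was not tested. PPHLN1 and DAXX were named outside the naming rule, after their values were seen. The histone deacetylase gene HDAC1 rose from 347 ± 7.91 to 401 ± 2.98 CPM. FAM208A, another HUSH subunit, rose from 88.8 ± 1.79 to 101 ± 2.56 CPM. The lysine 9 demethylase gene KDM4B rose by 0.14 on the log2 scale, and ATF7IP2, a relative of the SETDB1 partner gene ATF7IP, rose by 0.25. EHMT2, the untested member of the list, was at 0 in all 8 libraries, and as said above such a 0 does not by itself show a silent gene.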

How the data were processed

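The authors deposited raw read counts per Ensembl gene, whole numbers in 8 columns, 1 per library, all used. Per the submitters' processing notes, bcl2fastq, Trimmomatic, STAR, featureCounts and DESeq2 were used with GRCh38.p12, with no versions named. For the annotation release, for the strand setting and for reads mapping to several places, the choice is not given in the sources used here. They bear on a family of duplicated genes, because reads that map to several copies may have been dropped or split.

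Gene names, positions and exons came from GENCODE 29 (GRCh38), matched without the version suffix, and promoters from RefSeq. Genes were kept by filterByExpr (minimum count 10, minimum total count 15). Libraries were scaled with TMM factors, group was the single term of the model fitted in edgeR 4.0.16 (R 4.3.3), and the quasi-likelihood F test was adjusted by Benjamini-Hochberg over all tested genes. The standard error is the absolute log2 fold change over the square root of F. The fit was tested on simulated data, in which far fewer genes changed than the 48.1% called here. It called 33 of 50 genes raised 1.25-fold and 31 of 50 lowered to 0.8-fold. At 2-fold it called 49 of 50, at 0.5-fold 45 of 48, and of 15398 unchanged genes 9. The members, the lists and the naming rule were chosen with earlier results of these data known. The rule names every member, with library values for the called members and the 3 of highest level per length, and a few called genes of each list. Alternatives were DESeq2 1.42.0, limma-voom (limma 3.58.1), other scalings and filters, the replicate block and each library left out. Finger patterns were searched in translated coding sequences. Uniqueness of sequence words was measured among GENCODE 29 transcripts in place of the genome, which was not used here.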

Additional observations from a re-analysis of the deposited data

Results flagged for a closer look

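In 24 groups of 4 libraries (12 tested members in each group), a library far from the others was found 2 times; chance alone gives about 1 in 20 groups. ZNF14 in parental replicate 2 was at 6.89 CPM, with the other parental libraries at 7.98 to 8.02 CPM. ZNF714 in parental replicate 3 was at 34.3 CPM, with the others at 36.2 to 36.5 CPM. Neither gene was called.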

How the results depend on the processing

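Over 16 other fits, 6 to 9 members were called lower and 0 higher. Over these fits and the removal of the GC trend, the median log2 fold change of the 12 tested members ranged from -0.28 to -0.21. The -0.21 was the value with the GC trend removed. Calls over all tested genes ranged from 3146 to 3796 higher and from 3225 to 3979 lower. ZNF91 (-1.27 to -1.17) and ZNF675 (-1.16 to -0.99) kept their calls in each of the 16, as did ZNF430, ZNF493, ZNF708 and ZNF254. The call of ZNF738 ended with no low-count filter (-0.18), the replicate block (-0.18), DESeq2 (-0.18) and limma-voom (-0.18), and without parental replicate 1, 2 or 3 or GNAS R201C/+ replicate 1, 3 or 4 (edgeR adjusted p 0.0636 to 0.225). That of ZNF724 ended with DESeq2 (adjusted p = 0.0668) and without parental replicate 2 (edgeR adjusted p = 0.0568). ZNF101 was called lower without parental replicate 1 (edgeR adjusted p = 0.0202) and without GNAS R201C/+ replicate 2 (edgeR adjusted p = 0.00982). ZNF14, not called in any, went from 0.028 to -0.023 without parental replicate 2 and ranged up to 0.047 with any other library left out. The cause was not tested. Over the longest transcript the median parental level of the 12 members was 1.93 RPKM instead of 1.42, since the exon union is longer. Same-numbered libraries did not deviate together (correlations -0.047, 0.054, -0.029 and -0.036), so the replicate block pairs numbers only; under it 7 members were called lower. Depth limits ZNF493, at 44 to 85 reads per library.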
